A study of Rattus norvegicus with 46 samples.

Results

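Hox genes encode homeodomain transcription factors that give cells their position along the trunk and the limb. In mammals they lie in 4 clusters, Hoxa, Hoxb, Hoxc and Hoxd, and the members of a cluster are numbered from the anterior-most expressed to the posterior-most, so genes that share a number in different clusters are paralogs. In the limb the high-numbered Hoxa and Hoxd genes pattern the skeleton from shoulder to digit, and adult fibroblasts are known to keep a regional Hox pattern. Here the Hox genes were followed in the rat shoulder, in the subacromial bursa, the connective tissue pad that slides over the rotator cuff, and in the supraspinatus tendon beneath it.

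Of 23747 gene symbols in the deposited gene tables, 37 were Hox genes: 9 of the Hoxa cluster, 10 of Hoxb, 9 of Hoxc and 9 of Hoxd. For 25 of them a transcript could be identified in the deposited count table, which gave a level in every library. The gene tables listed 4 others at 0 throughout (Hoxa7, Hoxb1, Hoxb13 and Hoxd12), and 8 had values in the gene tables only, Hoxa2, Hoxa4, Hoxa10 and Hoxc11 among them. Hoxa5 and Hoxa6 were not analysed here.

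The 46 RNA-seq libraries came from Rattus norvegicus whose supraspinatus tendon was cut (tenotomy), with the bursa either taken out or left in place, and from rats that had no operation. The groups were bursa 3 days and 14 days after tenotomy (6 libraries each), tendon 3 and 14 days after tenotomy with the bursa removed (6 each), tendon 3 and 14 days after tenotomy with the bursa intact (6 each), control bursa (5) and control tendon (5). The labels give no strain, sex or age. The study took the tendons of both sides of a rat, and no label says which libraries share an animal, so libraries were treated as separate and some may come from 1 rat.

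Libraries held 12.4 to 69.9 M estimated counts (M for mega), with a median of 17.3 M. Levels are CPM (counts per M of the TMM-scaled library total) and are compared for a gene with itself only, since transcript lengths were not used. A gene was called higher or lower when its Benjamini-Hochberg adjusted p, from edgeR's quasi-likelihood test over all features, was under 0.05. Control bursae 1 and 2 stood apart with 48.9% and 53.5% of their counts from the mitochondrial genome, against 13.3% to 16.98% in control bursae 3 to 5, and results that rest on the control bursae are also given without them. Against their labels, the 4 matched synovial lining markers, which include the lubricin gene Prg4, were all lower in control bursa than in control tendon (18.6 to 728 against 1530 to 2779 summed CPM), and the 5 matched white adipocyte markers were all higher (6856 to 15914 against 399 to 728). The 8 matched tendon cell markers summed to 2679 CPM in control bursa 4, to 61.6 to 302 CPM in the other control bursae and to 4103 to 10112 CPM in control tendon. In whole tissue, fewer cells of a type and less RNA per cell cannot be told apart.

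The neighbouring Hoxd cluster genes Hoxd8, Hoxd9 and Hoxd10 are those on which the results after injury turn, so the 250 bases before their RefSeq start sites (build GRCr8, plus strand) are shown. Motifs were searched on both strands, and matches are in capitals.
Hoxd8, chr3:80014973-80015222: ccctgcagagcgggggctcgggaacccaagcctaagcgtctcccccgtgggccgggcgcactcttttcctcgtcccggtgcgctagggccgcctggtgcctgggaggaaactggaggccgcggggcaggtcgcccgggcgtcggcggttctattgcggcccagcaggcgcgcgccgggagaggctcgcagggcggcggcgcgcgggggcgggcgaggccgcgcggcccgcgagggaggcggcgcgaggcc
Hoxd9, chr3:80007756-80008005: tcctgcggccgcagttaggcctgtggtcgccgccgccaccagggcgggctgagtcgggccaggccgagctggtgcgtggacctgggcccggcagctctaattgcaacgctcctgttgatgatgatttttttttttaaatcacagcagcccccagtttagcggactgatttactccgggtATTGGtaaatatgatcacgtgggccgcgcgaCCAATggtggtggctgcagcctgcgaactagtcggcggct
Hoxd10, chr3:80001697-80001946: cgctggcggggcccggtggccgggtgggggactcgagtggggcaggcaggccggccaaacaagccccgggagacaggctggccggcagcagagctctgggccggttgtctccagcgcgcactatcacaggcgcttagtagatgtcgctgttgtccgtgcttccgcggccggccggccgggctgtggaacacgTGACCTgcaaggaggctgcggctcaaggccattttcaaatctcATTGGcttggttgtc
The capitals mark AGGTCA, the core sequence bound by nuclear receptors such as those for retinoic acid, which was found once before Hoxd10, and CCAAT, the core promoter element, found 2 times before Hoxd9 and once before Hoxd10. None of the 3 windows held TATAAA, the Meis core site TGACAG or the Pbx-Hox site TGATNNAT. Over 33469 rat promoter windows of the same length, 14.1% held AGGTCA, 34.0% CCAAT, 12.9% TATAAA, 15.8% TGACAG and 7.96% TGATNNAT. Of 21 Hox promoter windows, 12 held CCAAT and 3 held AGGTCA. The share of G and C was 78.8% before Hoxd8, 60% before Hoxd9 and 67.2% before Hoxd10, against a median of 51.2%. RefSeq promoters were found for 19 of the 37 genes. CCAAT was added to the search after the sequences were seen.

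Control bursa and control tendon were compared first, to describe the Hox pattern of each tissue before injury. Of the 37 Hox genes, 18 had enough counts to be tested over both tissues. Of these, 7 were higher and 5 were lower in bursa than in tendon, where 48.0% of all 19345 features were called, 27.1% higher and 20.9% lower. For 5 of the 18 the call was largely set by the filter on low counts: Hoxa9, Hoxc8, Hoxc9 and Hoxd10 passed it in tendon but not in bursa, and Hoxb6 in bursa but not in tendon, so these 5 could hardly fail to differ, and their levels are given as a description. Of the 13 Hox genes that passed it in each tissue, 6 were higher in bursa and 1 was lower, where 27.7% of the 17577 features that did so were higher and 21.5% lower. The filter covered injured libraries too, and Hoxb5, among the 6 higher genes, had only 2 to 13 counts in each control tendon. The median log2 fold change was 0.70 over those 13 genes and 0.09 over those features. By paralog number, the 10 of them numbered 2 to 6 gave 5 higher and 0 lower, the 2 numbered 7 and 8 gave 1 higher and 0 lower, and the 1 numbered 9, Hoxd9, was lower.

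**Figure D1:**
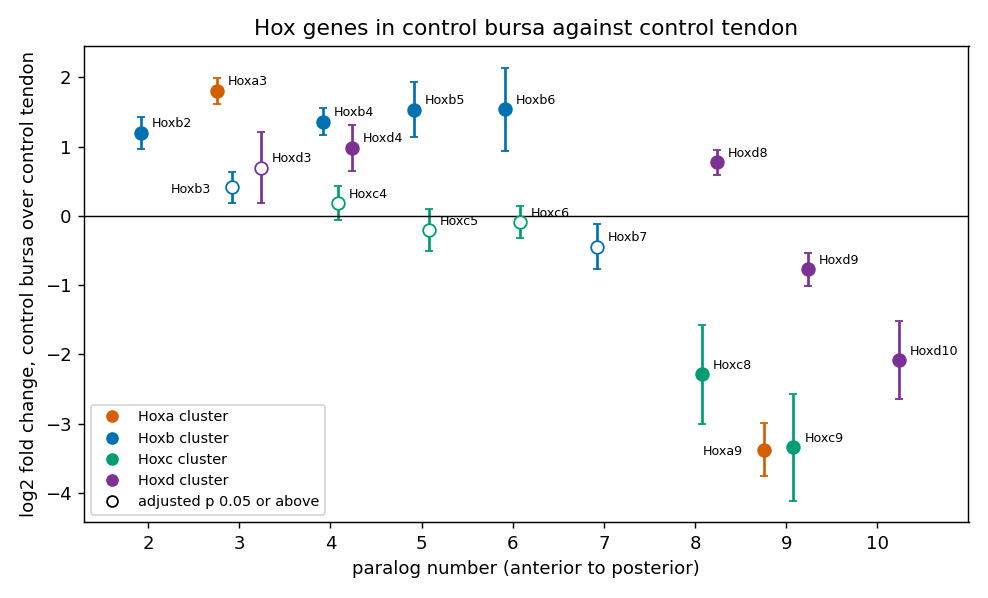
Log2 fold change of the 18 tested Hox genes, control bursa over control tendon (5 libraries each), against paralog number; bars are standard errors, colours are clusters and open symbols did not pass an adjusted p of 0.05. Filled symbols lie above 0 for paralogs 2 to 6 and for Hoxd8, and below 0 for Hoxc8 and paralogs 9 and 10. Hoxa9, Hoxc8, Hoxc9 and Hoxd10 had enough counts in tendon only, and Hoxb6 in bursa only.

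Anterior genes led the bursa side. Hoxa3, which patterns neck and throat structures in the mouse, had 12.1, 13.3, 13.6, 14.3 and 16.9 CPM in control bursae, against 3.06, 3.25, 3.40, 4.36 and 5.95 CPM in control tendons. The groups did not overlap, and the log2 fold change was 1.81 ± 0.19 (SE, n = 5 each; edgeR adjusted p = 3.02e-10). Hoxb4 had 3.50, 6.40, 6.51, 7.31 and 7.49 CPM in control bursae, against 1.21, 2.17, 2.61, 2.71 and 3.50 CPM in control tendons (log2 fold change 1.36 ± 0.19, edgeR adjusted p = 1.49e-07). Its lowest bursa (3.495 CPM) lay just below its highest tendon (3.502 CPM), so the Hoxb4 groups overlapped.

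Hoxb2 had 3.41, 4.02, 4.14, 7.31 and 7.99 CPM in control bursae, against 1.59, 1.67, 2.11, 3.06 and 3.40 CPM in control tendons (log2 fold change 1.20 ± 0.23, edgeR adjusted p = 3.63e-05). Hoxb5 had 0.786, 1.19, 1.51, 1.83 and 1.89 CPM in control bursae, against 0.151, 0.186, 0.567, 0.613 and 0.978 CPM in control tendons (log2 fold change 1.54 ± 0.40, edgeR adjusted p = 0.00148). All 5 bursae exceeded all 5 tendons for Hoxb2, while the lowest bursa for Hoxb5 lay below the highest tendon. Hoxb6 (log2 fold change 1.54, with enough counts in bursa only) and Hoxd4 (0.98) were also higher in bursa.

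Among called genes numbered above 6, only Hoxd8 was higher in bursa. It had 10.4, 11.03, 13.1, 13.2 and 13.4 CPM in control bursae, against 5.12, 6.42, 6.48, 8.73 and 9.03 CPM in control tendons, with no overlap (log2 fold change 0.77 ± 0.19, edgeR adjusted p = 6.66e-04). Its neighbour Hoxd9 went the other way, with 8.04, 9.09, 9.81, 11.6 and 13.7 CPM in control bursae, against 10.8, 15.2, 17.5, 18.5 and 27.3 CPM in control tendons (log2 fold change -0.77 ± 0.24, edgeR adjusted p = 0.00626). The Hoxd9 groups overlapped.

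Hoxd10 had 0.0874, 0.0994, 0.161, 0.192 and 0.505 CPM in control bursae, against 0.527, 0.794, 0.963, 1.13 and 1.42 CPM in control tendons (log2 fold change -2.08 ± 0.56). Hoxa9 had 0.149, 0.175, 0.210, 0.215 and 0.385 CPM in control bursae, against 2.04, 2.189, 2.26, 2.34 and 2.97 CPM in control tendons (log2 fold change -3.38 ± 0.39). For both genes every bursa lay below every tendon, at 20 counts of Hoxd10 and 18 of Hoxa9 over all 5 control bursae. The annotation held 3 identical Hoxa9 transcripts with equal counts, so this row carries about 1 of 3 parts of the Hoxa9 reads in every library.

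Hoxc8 had 0, 0, 0, 0.0994 and 0.323 CPM in control bursae, against 0.0755, 0.227, 0.263, 0.495 and 1.28 CPM in control tendons. Hoxc9 had 0, 0, 0.0421, 0.0874 and 0.0962 CPM in control bursae, against 0.0876, 0.454, 0.529, 0.557 and 0.602 CPM in control tendons. These are few reads: Hoxc9 had 3 counts over the control bursae and 29 over the control tendons, a ratio of 0.0772 with an exact 95% interval of 0.015 to 0.249 that covers counting error only.

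Without control bursae 1 and 2, 10 Hox genes were called. Hoxc8, Hoxd4 and Hoxd9 were then no longer called, with log2 fold changes of -1.76, 0.88 and -0.64, and Hoxb3 was (0.74). Fitting the 10 control libraries alone left 7 called, and with the level of the 7 matched skeletal muscle markers as a covariate Hoxb6 and Hoxd8 were no longer called (edgeR adjusted p of Hoxd8 0.0766). Those muscle markers summed to 466 to 18115 CPM in control bursa and to 32564 to 54100 CPM in control tendon.

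For Hox genes without a transcript match, the mean and fold change in the authors' deposited tables give a mean per group, converted here to approximate CPM and not tested between tissues. In the authors' deposited tables Hoxa4 averaged about 10.7 CPM in control bursa and 1.42 CPM in control tendon. Hoxa2, a hindbrain and branchial arch gene in the mouse, averaged about 10.4 CPM in control bursa and 2.89 CPM in control tendon, by the authors' deposited tables. A row named LOC100911668, the gene ID that RefSeq now gives as Hoxa10, averaged about 0.70 CPM in control bursa and 29.2 CPM in control tendon in the authors' deposited tables. The row named Hoxa10 itself, with Hoxc11, Hoxc12 and Hoxc13, stayed at or under a mean of 0.473 normalised counts in every one of the authors' deposited tables, and Hoxa13 at about 0.0129 CPM in control bursa and 0.138 CPM in control tendon. Hoxa names are as the files give them.

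The 7 matched genes that were not tested (Hoxa11, Hoxb8, Hoxb9, Hoxc10, Hoxd1, Hoxd11 and Hoxd13) had group means of at most 0.38 CPM, and matches are less certain at such low counts. Of the other tested genes, Hoxb3, Hoxb7, Hoxc4, Hoxc5, Hoxc6 and Hoxd3 were not called, with log2 fold changes between -0.44 and 0.70.

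After tenotomy the clearest change was in tendon at day 14. Of 17 Hox genes tested there, 10 were higher and 1 was lower with the bursa removed, and 9 were higher and 1 was lower with the bursa intact, each against control tendon. Of all 18350 features, 61.0% were called with the bursa removed (31.4% higher and 29.7% lower) and 62.5% with it intact (32.3% higher and 30.2% lower). The median log2 fold change of the 17 Hox genes was 0.68 with the bursa removed and 0.58 with the bursa intact, against 0.02 and 0.03 over all features. All injured tendon groups share the 5 control tendons, so their comparisons with control are not independent.

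**Figure D2:**
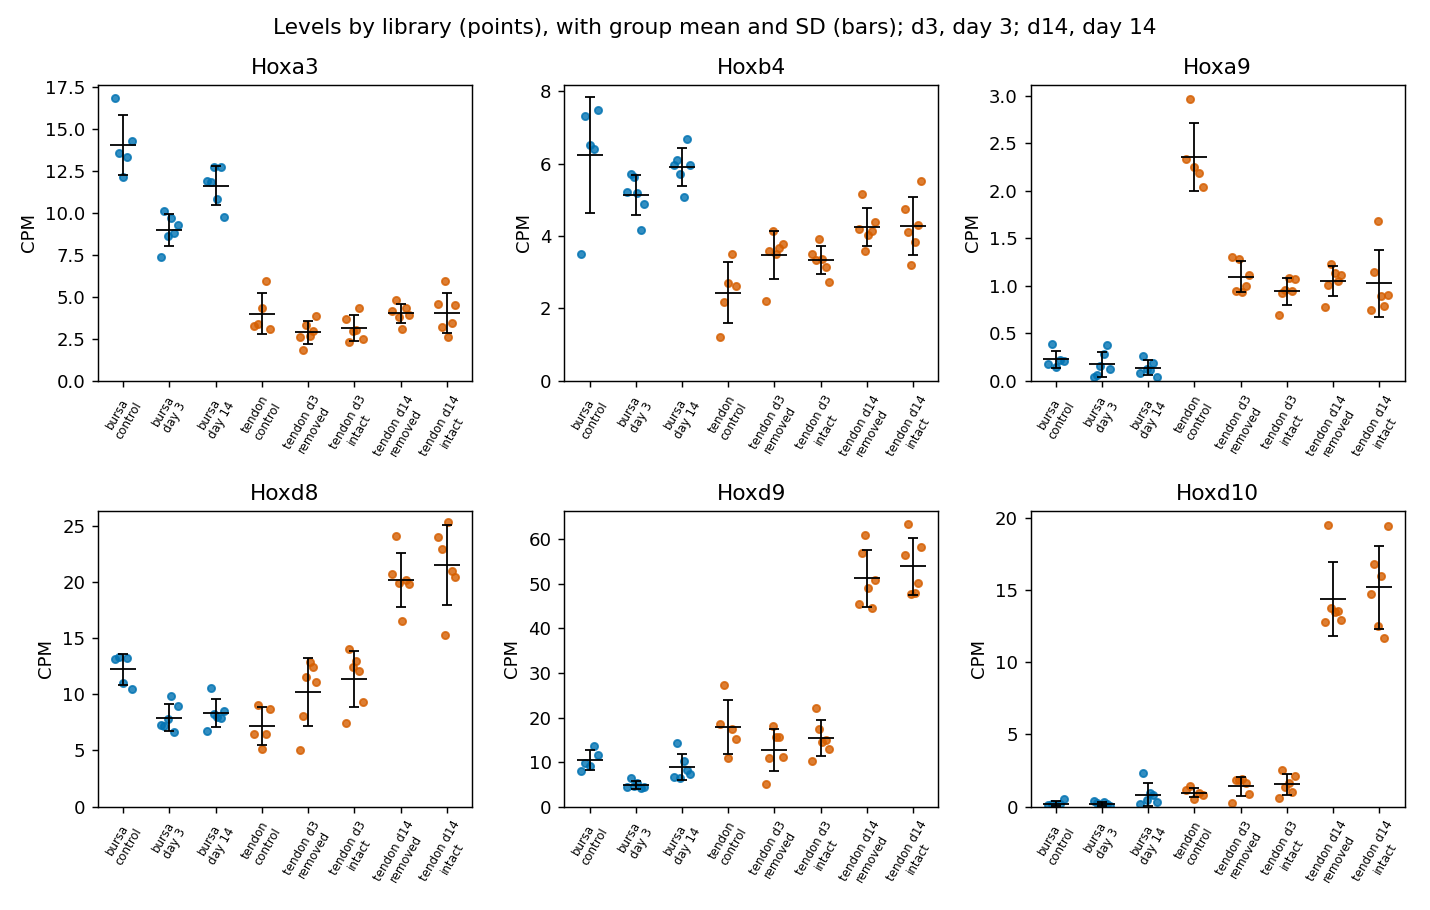
CPM of 6 Hox genes in each library (points; blue, bursa; orange, tendon) of the 8 groups, with the group mean and SD (black). Day 14 tendons lie at 44.6 to 63.5 CPM for Hoxd9 and at 11.7 to 19.5 CPM for Hoxd10, above all other libraries, while Hoxa9 is highest in control tendons.

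Hoxd10, a posterior limb patterning gene, changed most. It had 12.8 to 19.5 CPM with a median of 13.5 in day 14 tendons with the bursa removed, and 11.7 to 19.4 CPM with a median of 15.3 in those with the bursa intact, against 0.527 to 1.42 CPM in the 5 control tendons listed above. No injured day 14 tendon came near the controls. The log2 fold change was 3.84 ± 0.36 with the bursa removed (edgeR adjusted p = 7.99e-10) and 3.92 ± 0.36 with the bursa intact (edgeR adjusted p = 4.90e-10), about 14.3-fold and 15.2-fold.

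Hoxd9, which acts with its paralogs in the upper limb of the mouse, had 44.6 to 60.9 CPM with a median of 49.96 in day 14 tendons with the bursa removed, and 47.6 to 63.5 CPM with a median of 53.3 in those with the bursa intact, against 10.8 to 27.3 CPM in control tendons. It was 2.83-fold higher with the bursa removed (edgeR adjusted p = 3.28e-06) and 2.98-fold higher with the bursa intact (log2 fold change 1.58 ± 0.23, edgeR adjusted p = 1.48e-06). Hoxd8 had 16.5 to 24.1 CPM with a median of 20.04 with the bursa removed, and 15.3 to 25.3 CPM with a median of 22.0 with the bursa intact, against 5.12 to 9.03 CPM in control tendons. Its log2 fold change was 1.48 ± 0.20 with the bursa removed (edgeR adjusted p = 4.52e-07) and 1.57 ± 0.20 with the bursa intact (edgeR adjusted p = 1.60e-07). For Hoxd8 and Hoxd9 the lowest day 14 tendon exceeded the highest control tendon.

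Hoxd3, which reached the level of the low-count filter in 1 of 5 control tendons and in all 6 day 14 tendons of each arm, rose too, to 0.761 to 1.59 CPM with the bursa removed and 0.874 to 1.41 CPM with it intact, against 0 to 0.866 CPM in control tendon (log2 fold changes 2.05 and 1.97). Hoxd4, which lies between Hoxd3 and Hoxd8 in the cluster, was not called (0.27 with the bursa removed and 0.01 with the bursa intact). Hoxd11 and Hoxd13 stayed under the level needed for testing. In the Hoxb cluster Hoxb2, Hoxb3 and Hoxb4 rose by log2 fold changes of 0.79 to 0.98 in both arms, and Hoxb7 rose with the bursa removed (0.68) but was not called with it intact (0.57). In the Hoxc cluster Hoxc6 (0.54 and 0.58 with the bursa removed and intact) and Hoxc8 (1.77 and 1.81, at the filter's level in 1 of 5 control tendons) rose. Hoxc8 and Hoxd3 passed that filter mainly through injured tendons, so their rises, included in the counts of called genes, are given as a description.

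Hoxa9 was the only tested Hox gene that fell at day 14. It had 0.776 to 1.23 CPM with a median of 1.08 in day 14 tendons with the bursa removed, and 0.744 to 1.69 CPM with a median of 0.900 in those with the bursa intact, below all 5 control tendons (2.04 to 2.97 CPM). The log2 fold change was -1.18 ± 0.21 with the bursa removed (edgeR adjusted p = 2.47e-05) and -1.21 ± 0.21 with the bursa intact (edgeR adjusted p = 1.64e-05). Other Hoxa rows had negative values as well: in the authors' deposited tables, LOC100911668 had a log2 fold change of -1.32 with the bursa removed (DESeq2 adjusted p = 4.09e-15) and -1.29 with it intact (3.82e-15), and Hoxa4 of -1.11 with the bursa removed (0.0130) and -1.12 with it intact (0.0236). Hoxa3 was not called (-0.01 with the bursa removed and 0.01 with it intact).

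**Figure D3:**
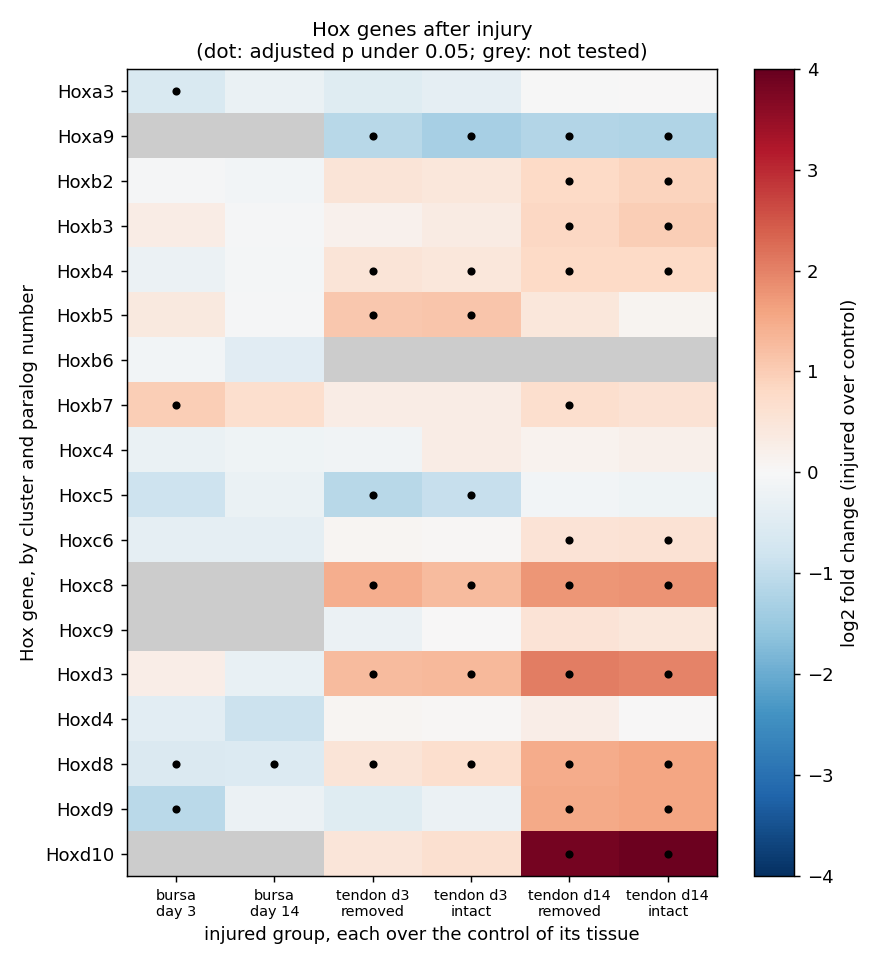
Log2 fold change of each Hox gene tested in bursa or tendon (rows) in the 6 injured groups (columns), each over the control of its own tissue; dots mark an adjusted p under 0.05 and grey cells were not tested. Hoxd10 is darkest in both day 14 tendon columns (3.84 and 3.92), Hoxa9 is blue in all 4 tendon columns, and Hoxd8 is blue in bursa and red in tendon.

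At day 3 the tendon response was smaller. With the bursa removed 5 Hox genes were higher and 2 lower of 17 tested, and with the bursa intact also 5 higher and 2 lower, where 58.6% of all features were called with the bursa removed (29.1% higher, 29.5% lower) and 61.4% with it intact (30.9% higher, 30.6% lower). The higher genes were thus near the share over all features in both arms, and the lower genes were under it. The same genes were called in both arms, Hoxb4, Hoxb5, Hoxc8, Hoxd3 and Hoxd8 upward, and Hoxa9 and Hoxc5 downward. Hoxb5, Hoxc8 and Hoxd3 passed the low-count filter mainly through injured tendons, so their calls, included in these counts, are given as a description. Hoxa9 had 0.938 to 1.31 CPM with the bursa removed and 0.688 to 1.09 CPM with it intact, against 2.04 to 2.97 CPM in control tendons (log2 fold change -1.11, edgeR adjusted p = 5.51e-05, and -1.33, adjusted p = 4.30e-06). Hoxc5 had 0.721 to 2.50 CPM with the bursa removed and 1.33 to 2.12 CPM with it intact, against 2.71, 3.25, 3.33, 3.40 and 3.59 CPM in control tendons (log2 fold change -1.10, edgeR adjusted p = 1.98e-04, and -0.93, adjusted p = 0.00103). Every day 3 tendon was below every control for these genes.

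Hoxc8 had 0.839 to 1.94 CPM with a median of 1.34 with the bursa removed and 1.01 to 1.31 CPM with a median of 1.14 with it intact, and its control tendons reached 1.28 CPM (log2 fold change 1.45, edgeR adjusted p = 0.00311, and 1.25, adjusted p = 0.00849). Hoxb5 had 0.666 to 1.37 CPM with a median of 1.21 with the bursa removed, against 0.151 to 0.978 CPM in control tendons (log2 fold change 1.09, edgeR adjusted p = 0.0250). Hoxd8 had 7.46 to 14.0 CPM with a median of 12.3 with the bursa intact, against 5.12 to 9.03 CPM in control tendons (log2 fold change 0.66, edgeR adjusted p = 0.00545). These groups overlapped, Hoxb5 and Hoxc8 reached the filter's level in 1 of 5 control tendons, and without control tendon 1 only 4 Hox genes were called in either arm. Hoxd9 and Hoxd10 were not called at day 3 (Hoxd9 -0.50 with the bursa removed and -0.23 with it intact, and Hoxd10 0.50 and 0.64).

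Day 14 was also set against day 3 within tendon, a comparison that uses no control library. With the bursa removed 6 Hox genes were higher and 0 lower at day 14, and with it intact 6 were higher and 1 lower, where 40.8% of all features were called with the bursa removed (20.2% higher, 20.6% lower) and 39.0% with it intact (19.2% higher, 19.8% lower). Hoxd10 had 0.275 to 1.88 CPM at day 3 with the bursa removed and 0.582 to 2.54 CPM with it intact, and the day 14 levels given above were higher by log2 fold changes of 3.35 ± 0.31 (edgeR adjusted p = 2.83e-09) and 3.29 ± 0.31 (edgeR adjusted p = 3.44e-09). Hoxd9 had 5.16 to 18.1 CPM at day 3 with the bursa removed and 10.2 to 22.1 CPM with it intact (log2 fold changes for day 14 over day 3 of 2.00 and 1.81). Hoxd8 had 5.02 to 12.9 CPM at day 3 with the bursa removed (log2 fold changes 0.98 with the bursa removed and 0.91 with it intact). The day 3 and day 14 ranges of these 3 genes did not overlap in either arm. Hoxb3, Hoxc5 and Hoxc6 were also higher at day 14, Hoxc5 by 0.99 with the bursa removed and 0.74 with it intact, and Hoxb5 was lower at day 14 with the bursa intact (-1.01).

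Muscle and tendon cell markers moved with these comparisons. The 7 matched skeletal muscle markers all fell in day 14 tendon, to 3600 to 15966 summed CPM with the bursa removed and 1780 to 7414 CPM with it intact, against 32564 to 54100 CPM in control tendon. With their level as a covariate, which does not overlap between injured and control tendon, 4 Hox genes stayed called at day 14 with the bursa removed (Hoxa9, Hoxd8, Hoxd9 and Hoxd10) and 3 with it intact (Hoxa9, Hoxd8 and Hoxd10). Hoxd10 then had a log2 fold change of 3.05 with the bursa removed and 2.97 with it intact. At day 3 that fit called 0 Hox genes with the bursa intact and 1 (Hoxd9, -1.30) with it removed. Between day 14 and day 3, where muscle levels overlapped, Hoxd8, Hoxd9 and Hoxd10 remained called with the covariate (Hoxd10 3.58 with the bursa removed and 3.51 with it intact).

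The 8 matched tendon cell markers summed to 7274 to 8195 CPM at day 14 with the bursa removed and 6823 to 9629 CPM with it intact, against 4103 to 10112 CPM in control tendon. From day 3, when they summed to 1762 to 3729 CPM with the bursa intact, 7 of the 8 rose by day 14. The 7 matched fibroblast and stromal markers summed to 75586 to 102293 CPM with the bursa removed and 79535 to 108466 CPM with it intact at day 14, against 10370 to 21645 CPM in control tendon. The part of these cell types in the Hox levels was not tested.

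Removing the bursa gave no detectable difference in Hox levels of injured tendon. Of 17 Hox genes tested, 0 were called at day 3 and 0 at day 14, and 0.0% of all 18350 features were called at either time by edgeR. At an unadjusted p under 0.05 there was 1 Hox gene at day 3 (Hoxc4) and 0 at day 14, beside 1307 and 251 of all features. DESeq2 also called 0 Hox genes at both times, as did a fit with the replicate number as a block. The share of features above and the intervals below come from the fit without that block. Libraries of both arms may come from the same rat, which that fit does not take into account. For Hoxd10 the log2 fold change, removed over intact, was -0.14 at day 3 (2 SE interval -0.77 to 0.49) and -0.08 at day 14 (-0.62 to 0.46). For Hoxd9 the day 14 interval was -0.49 to 0.34, and for Hoxd8 it was -0.45 to 0.27, so differences of up to about that size remain possible.

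**Figure D4:**
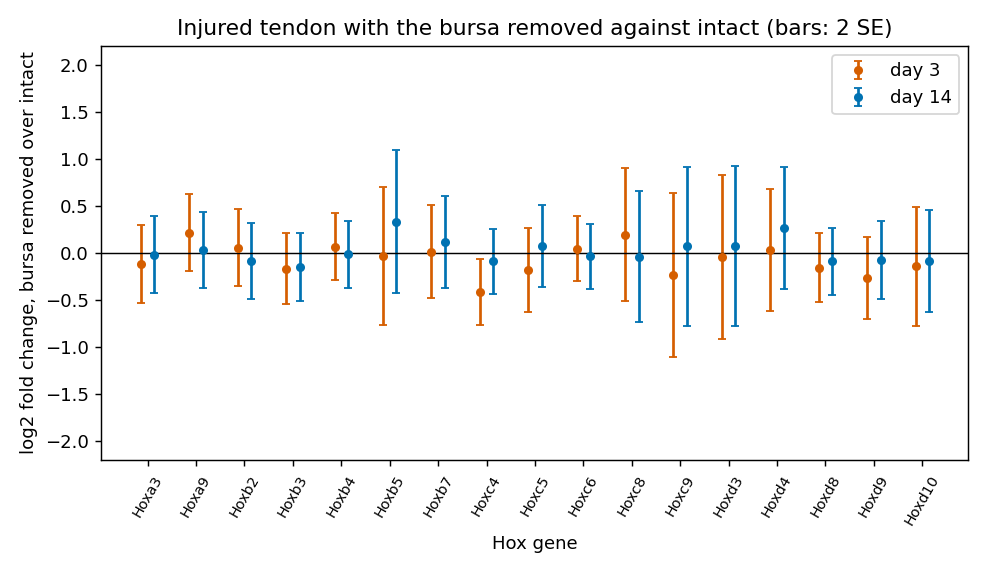
Log2 fold change of the 17 tested Hox genes in injured tendon, bursa removed over bursa intact, at day 3 (orange) and day 14 (blue), 6 libraries a group; bars are 2 standard errors. All points but Hoxc4 at day 3 have bars that cross 0.

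In the bursa few Hox genes changed after tenotomy. At day 3, Hoxa3, Hoxd8 and Hoxd9 were lower and Hoxb7 was higher than in control bursa, of 14 tested, where 42.7% of all 18257 features were called, 20.5% higher and 22.2% lower, so the 3 lower genes are near the share over all features. Hoxd9 had 4.12 to 6.497 CPM with a median of 4.54 at day 3, against 8.04 to 13.7 CPM in the 5 control bursae (log2 fold change -1.07 ± 0.20, edgeR adjusted p = 5.75e-04). Hoxa3 had 7.399 to 10.1 CPM with a median of 9.04 at day 3, against 12.1 to 16.9 CPM in control bursae (log2 fold change -0.61 ± 0.11, edgeR adjusted p = 3.31e-04). Hoxd8 had 6.66 to 9.81 CPM with a median of 7.51 at day 3, against 10.4 to 13.4 CPM in control bursae (log2 fold change -0.59 ± 0.12, edgeR adjusted p = 0.00131). None of these 3 genes overlapped between day 3 and control, and all 3 were called in each of 23 alternatives, the fit without control bursae 1 and 2 included.

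Hoxb7 had 0.704 to 1.52 CPM at day 3, against 0.262 to 1.22 CPM in control bursae (log2 fold change 0.98, edgeR adjusted p = 0.0464), and lost its call in 13 of 23 alternatives, the fit without control bursae 1 and 2 included (0.59). It had 3 to 29 counts in each control bursa and 13 to 30 in each day 3 bursa. Hoxb7 thus passed the low-count filter mainly through injured bursae, so its call, included in the count above, is given as a description. In the authors' deposited tables Hoxa4 and Hoxa2 were lower at day 3, by log2 fold changes of -1.48 (DESeq2 adjusted p = 0.00136) and -0.58 (4.80e-04). Markers of several cell types moved alongside. White adipocyte markers fell (5 of 5), to 1894 to 4917 summed CPM at day 3 against 6856 to 15914 CPM in control bursa, and so did Schwann cell markers (4 of 4), to 139 to 273 CPM against 551 to 1274 CPM. Macrophage markers rose (5 of 6), to 2011 to 3478 CPM against 263 to 984 CPM, fibroblast and stromal markers rose (4 of 7), to 38896 to 62537 CPM against 1767 to 14751 CPM, and both cell division markers rose, to 100.5 to 258 CPM against 2.36 to 8.98 CPM. The part of these cell types in the Hox levels was not tested.

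At day 14 only Hoxd8 was called against control bursa of 14 tested, where 13.8% of all features were called, 8.18% higher and 5.65% lower. It had 6.73 to 10.6 CPM with a median of 8.14 (log2 fold change -0.55 ± 0.12, edgeR adjusted p = 0.00842). The call was lost with the replicate number as a block (adjusted p = 0.0973), and held in the other 22 alternatives, among which DESeq2 called 2 Hox genes and the fit of all 46 libraries 3. Between day 14 and day 3 in bursa, 2 Hox genes were higher and 0 lower, where 18.9% of all features were called, 8.17% higher and 10.7% lower. Hoxd9 had 6.43 to 14.3 CPM at day 14 (log2 fold change over day 3 of 0.82, edgeR adjusted p = 0.00764) and Hoxa3 had 9.73 to 12.7 CPM (0.33, edgeR adjusted p = 0.0332), the Hoxa3 call being lost in 10 of 23 alternatives. Hoxd10 was too low for testing in bursa, at 0.155 to 2.33 CPM on day 14. The library at 2.33 CPM, bursa day 14 replicate 2, also had the highest Hoxd9 and the highest tendon cell markers of its group (1458 summed CPM, against 179 to 1109 in the other day 14 bursae). Control bursa 4 had more tendon cell markers (2679 summed CPM) and the highest Hoxd9 of the control bursae (13.7 CPM), with Hoxd10 at 0.161 CPM. The part of tendon cells in these levels was not tested.

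The responses of the tissues were compared directly, as the bursa change minus the change of tendon with the bursa intact. At day 14, 8 Hox genes of 18 tested were called, all lower in the bursa response, where 31.6% of all 19345 features were called, 13.8% higher and 17.8% lower. Of the 13 with enough counts in each tissue 7 were lower and 0 higher, where 19.0% of such features were lower and 14.5% higher. At day 3, 3 were lower and 0 higher, all 3 with enough counts in each tissue, where 21.1% of all features were called, 8.66% higher and 12.5% lower. Hoxd8 differed by -2.14 ± 0.25 at day 14 (edgeR adjusted p = 3.09e-08) and by -1.29 ± 0.25 at day 3 (edgeR adjusted p = 1.94e-04): it fell in bursa at both times and rose in tendon at both times, except that with muscle markers as a covariate its day 3 tendon value was -0.23 with the bursa intact and -0.30 with it removed, neither called. Hoxd9 differed by -1.84 ± 0.32 at day 14 (edgeR adjusted p = 2.53e-05) and by -0.89 ± 0.32 at day 3 (adjusted p = 0.0432).

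Hoxb4 (-0.90) and Hoxb3 (-1.04) were next by adjusted p at day 14, followed by Hoxb2, Hoxd3 and Hoxc6. Hoxd3 had 0 to 14 counts in each control tendon and 3 to 16 in each control bursa. In tendon it passed the low-count filter mainly through injured libraries, so its difference, included in the counts of called genes, is given as a description. The eighth, Hoxd10, had too few counts in bursa (1 to 12 in each control bursa), so no difference in response is drawn for it. With muscle markers as a covariate 2 genes stayed called at day 14 (Hoxd8 and Hoxd9) and 1 at day 3 (Hoxd8), and without control bursae 1 and 2 there were 9 at day 14 and 5 at day 3.

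Injured bursa and injured tendon were also set side by side within each time. At day 14, 3 Hox genes were higher and 9 lower in bursa than in tendon with the bursa intact of 18 tested, where 49.0% of all features were called, 25.1% higher and 23.9% lower. At day 3, 3 were higher and 7 lower, where 31.1% of all features were called, 15.6% higher and 15.5% lower. Hoxa9, Hoxc8, Hoxc9 and Hoxd10, which had enough counts in tendon only, are among the lower genes at both times. Of the 13 with enough counts in each tissue, 3 were higher and 5 lower at day 14 (25.0% and 24.7% of such features), and 3 were higher and 3 lower at day 3 (15.4% and 16.3%). Hoxa3 was higher in bursa by log2 fold changes of 1.51 at day 14 and 1.52 at day 3 (bursa 9.73 to 12.7 and 7.399 to 10.1 CPM, against tendon 2.62 to 5.96 and 2.31 to 4.35 CPM). Hoxd9 was lower in bursa, with log2 fold changes of -2.61 at day 14 and -1.66 at day 3. Hoxd10 had 0.155 to 2.33 CPM in day 14 bursae, against 11.7 to 19.4 CPM in day 14 tendons with the bursa intact, a description only. Hoxd8, higher in control bursa than in control tendon, was lower in injured bursa than in injured tendon (-1.36 at day 14 and -0.52 at day 3).

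Genes that work with Hox proteins or set position beside them were described by the same tests, and their counts read against 27.1% of all features higher and 20.9% lower in control bursa, and 32.3% higher and 30.2% lower in day 14 tendon with the bursa intact. Of the TALE homeodomain cofactors, which bind DNA together with Hox proteins, 5 of 9 were tested and 2 were higher and 2 lower in control bursa than in control tendon (Meis2 0.79, Meis3 0.37, Pbx3 -0.74 and Pknox1 -0.38). At day 14 in tendon with the bursa intact 3 rose (Pbx3 0.95, Meis3 0.92 and Meis2 0.66) and 1 fell (Pknox1 -0.62). Of Polycomb and trithorax genes, which hold Hox genes off or on, 20 of 22 were tested and 14 rose and 1 fell there, with Cbx2 (1.60) and Pcgf2 (1.03) up and Ezh1 (-0.90) down. The H3K27 methyltransferase gene Ezh2 rose by 0.82 at day 14 in tendon with the bursa intact, and by 1.84 there and 1.96 in bursa at day 3, when the 2 matched cell division markers summed to 234 to 336 CPM in tendon with the bursa intact against 5.10 to 10.3 CPM in control tendon.

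Of the limb and trunk patterning factors other than Hox, 2 were higher and 11 lower in control bursa than in control tendon of 26 tested. Pitx1, a hindlimb identity gene, was at 0 in all 5 control bursae and at 10.99 to 27.3 CPM in control tendons, and Six2 (-3.36), En1 (-3.09) and Tbx15 (-2.09) followed. Pitx1 had enough counts in tendon only, and En1 had at most 0.43 CPM in control bursae, so both are given as a description. Six2 was also low in control bursae, at 0.437 to 0.646 CPM against 4.23 to 7.94 CPM in control tendons. In day 14 tendon with the bursa intact 11 rose and 6 fell of 25 tested. Pax1, a shoulder girdle and vertebral gene, rose most, to 18.2 to 26.3 CPM at day 14 against 0.113 to 0.619 CPM in control tendons (log2 fold change 5.81), Lmx1b (2.14) and Gli3 (1.44) rose, and Pitx1 fell (-3.42). Pax1 passed the low-count filter through injured tendons, and so mainly did Lmx1b, at 0.088 to 0.79 CPM in control tendons. The rises of Pax1 and Lmx1b, included in the count above, are therefore given as a description. Of the retinoic acid pathway, which switches Hox genes on in the embryo, 12 of 17 were tested and 3 rose and 5 fell there, with Crabp2 (2.65) up and Aldh1a1 (-2.89), Aldh1a2 (-2.17) and Aldh1a3 (-1.44) down. No Evx, ParaHox or Cdx gene had enough counts for testing.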

How the data were processed

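Poly-A RNA of 46 libraries was sequenced. Per the submitters' processing notes, bcl2fastq 2.19, kallisto 0.44.0 and DESeq2 were used. The build and the annotation: not given in the sources used here. Estimated counts were deposited by the authors for 31715 transcripts with no gene names, all whole numbers, with 11 DESeq2 gene tables whose columns hold a mean of normalised counts over both groups (signal), log2 fold changes (found by a refit to run second-named over first-named group, and turned round here where needed), p-values and a Wald score, by the authors. Gene names were tied to transcripts by value: a symbol was accepted where 1 transcript, scaled by recovered size factors, gave its mean in all 11 tables within 0.1 plus 0.2%, or, for means of 20 or more, within 5% with the next transcript far off. This named 14394 of 23747 symbols and 77.1% of counts; with decoys made by scaling means up in bursa tables and down in tendon tables by 1.3, 3 of 10896 matched at means of 5 or more and 148 of 2751 below.

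The counts were fitted with edgeR 4.0.16 (R 4.3.3; filterByExpr, TMM, robust quasi-likelihood), in 1 fit of all 46 libraries for comparisons between tissues, of the 17 bursa libraries or of the 29 tendon libraries within a tissue. Adjusted p-values cover all features tested. SE is the log2 fold change over the root of F. Group means of unmatched genes, worked out from the mean and the fold change, were converted to CPM through the size factors; over 99 levels of matched Hox genes this missed by a median of 0.344%. On simulated counts, 40 of 100 planted 2-fold and 74 of 100 planted 4-fold changes were recovered in control bursa against control tendon (19345 features). Whether replicates came from separate animals is not stated per library, so p-values measure the spread between libraries.

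Members, lists and tests were chosen with earlier results of these data known. Values are printed per library for up to 10 genes called in control bursa against control tendon and for the 4 smallest adjusted p in each other comparison; other lists name at most 4 called genes by size of change. Other normalization, filters, DESeq2 1.42.0, other sets of libraries in the fit, single-transcript matches, a replicate block, a muscle covariate and leaving libraries out were tried as alternatives. Counts over genes that pass the low-count filter in each tissue were added after seeing the data. Values of some genes in the lists are not reported here.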

Additional observations from a re-analysis of the deposited data

Results flagged for a closer look

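Single libraries stood far from the rest of their group in 5 of 99 gene and group combinations tested, where chance alone gives about 1 in 20. Hoxb2 was lowest in bursa day 3 replicate 5 at 3.74 CPM (next 5.13) and in tendon day 14 with the bursa removed, replicate 4, at 2.66 CPM (next 4.13). Hoxb4 was lowest in control bursa replicate 1 at 3.50 CPM (next 6.40) and in tendon day 3 with the bursa removed, replicate 1, at 2.202 CPM (next 3.50). Hoxd10 was highest in tendon day 14 with the bursa removed, replicate 2, at 19.5 CPM (next 13.8).

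The injury response, as a log2 fold change over control, was compared between bursa and tendon with the bursa intact (edgeR interaction test). Of Hox genes with enough counts in each tissue, 3 differed at day 3 and 7 at day 14. Bursa minus tendon, the day 3 differences were -0.74 for Hoxb4, -1.29 for Hoxd8 and -0.89 for Hoxd9. At day 14 they were -1.02 for Hoxb2, -1.04 for Hoxb3, -0.90 for Hoxb4, -0.94 for Hoxc6, -2.28 for Hoxd3, -2.14 for Hoxd8 and -1.84 for Hoxd9. Hoxd3 passed the low-count filter in tendon mainly through injured tendons, so its difference is given as a description. Hoxd10 was called too (-2.15), but had too few counts in bursa, so no difference in response is drawn for it.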

How the results depend on the processing

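Counts of called Hox genes are given here. With the muscle marker level as a covariate they moved to 0 (tendon day 3 intact over control, from 7), 1 (day 3 removed, from 7), 3 (day 14 intact, from 10), 4 (day 14 removed, from 11), 2 (bursa day 14 over control, from 1), 1 (bursa day 14 over day 3, from 2), 1 (response difference at day 3, from 3) and 2 (at day 14, from 8). At day 3 that covariate turned Hoxb4 to -0.15 and Hoxd8 to -0.23 with the bursa intact, and Hoxb4 to -0.020 and Hoxd8 to -0.30 with it removed; none of these passed the test. Fitting only the groups compared gave 7 for control bursa over control tendon (from 12), 3 and 3 for day 3 tendon intact and removed, and 1 for the response difference at day 3. Without control bursae 1 and 2 that difference gave 5. Bursa day 14 over control gave 3 with all 46 libraries in the fit and 2 with DESeq2.

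Same-numbered libraries correlated above 0.1 in every pair in none of the comparisons, so the numbers were not taken to pair libraries. They came nearest between tendon arms: with the bursa removed and intact the 6 correlations were 0.037 to 0.182 at day 14 (4 above 0.1, 5 of 6 libraries most like their own number) and 0.046 to 0.305 at day 3 (2 above 0.1, 4 of 6), and between bursa and tendon at day 3 0.068 to 0.127 (2 above 0.1, 5 of 6). The study took tendons of both sides of a rat, and library codes run consecutively within a number. No label ties these libraries to 1 rat, so a pairing by rat remains possible. With the replicate block, removed over intact still gave 0 called Hox genes at both times. The replicate block gave 6 for control bursa over control tendon, 0 for bursa day 14 over control, 1 for bursa day 14 over day 3, 3 for tendon day 3 intact and 2 for tendon day 3 removed. Leaving out 1 library gave 1 to 2 for bursa day 14 over control (2 without bursa day 14 replicate 3), 1 to 2 for bursa day 14 over day 3 (1 without any of replicates 1, 2, 3 and 5 of day 14 or 1, 3 and 6 of day 3), 4 to 8 for tendon day 3 intact and 4 to 9 for tendon day 3 removed (both 4 without control tendon 1), and 1 to 3 for the day 3 response difference (1 without control tendon 1, control bursa 5, tendon day 3 intact 3 or bursa day 3 5). Leaving mitochondrial and muscle features out of the library totals raised the median Hox level to 4.83 CPM, from 4.00. Of 2368 single-gene values under alternatives, 2109 kept direction and call, 200 lost a call, 55 gained one and 4 turned. The cause of these shifts was not tested. Counting only genes that pass the low-count filter in each tissue gave 7 for control bursa over control tendon and, for bursa over tendon with the bursa intact, 6 at day 3 (from 10). This count and summing the 3 identical Hoxa9 copies were alternatives chosen after seeing the data.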
